A study of Mus musculus with 35 samples.

Results

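The small RNA of control mouse hippocampus was read in 8 libraries, which are all small RNA libraries that the labels call control. They are 8 of the 16 small RNA libraries and of the 35 libraries of the whole series, which follows the hippocampus of C57BL/6J mice after pilocarpine-induced status epilepticus (SE). The mice were male and female and 6 to 7 weeks old, and the sex of each mouse was not given. Controls received an intraperitoneal injection of saline vehicle and SE mice received pilocarpine at 350 mg/kg, in both cases after scopolamine, a blocker of muscarinic receptors. The controls are therefore injected animals rather than untouched ones. RNA of whole hippocampal tissue was collected 1, 8, 24 and 120 h after the start of seizures or at the matching time in controls, with 2 control and 2 SE libraries at each time. The labels number the replicates without saying that each is a separate mouse, so the p-values below measure the spread between these libraries.

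The batch label used here follows the titles of the libraries, and it parts them by time. Both control libraries of 8 h, and both SE libraries of 8 h, were given the label G317micro, although these SE titles begin with C in place of G. All others are labelled G370, so that the 8-h collection and batch G317micro cannot be told apart. The 8 controls held 3171341 to 7683708 counts, of which 2961369 to 7176317 were microRNA counts, and the 2 libraries of G317micro were the shallowest. Over the 228 microRNAs with a median of at least 100 reads per 1000000 microRNA counts (RPM), Spearman's correlation was 0.957 to 0.996 between controls of G370, 0.988 between those of G317micro and 0.872 to 0.924 across the batches, as a description across microRNAs. Control 8 h replicate 2 stood apart further, since 25 features found mainly in it made up 2.83% of its counts. Levels are therefore given with their range over all 8 controls, and with the batches apart where these separate.

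MicroRNAs are short RNAs cut from hairpin transcripts by the enzymes Drosha and Dicer. Either arm of a hairpin, the 5p or the 3p arm, can be loaded into an Argonaute protein, which it then guides to messenger RNAs, chiefly through the seed, that is bases 2 to 8 counted from its 5′ end. MicroRNAs with the same seed form a family with largely shared targets, and the brain is known for high levels of miR-9, miR-124, miR-128 and the let-7 family, which take part in neuronal differentiation and in the control of translation at synapses.

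Of the 20 microRNAs with the highest median level in controls, 18 had a mature sequence in RefSeq (assembly GRCm38.p6). They are shown because most small RNA counts of this tissue came from these few molecules. The seed is in capitals, and microRNAs that share a seed stand together. miR-124-3p and miR-30d-5p are named only.
miR-9-5p: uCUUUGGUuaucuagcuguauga
miR-9-3p: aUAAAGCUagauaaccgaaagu
miR-128-3p: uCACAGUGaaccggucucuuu
let-7f-5p: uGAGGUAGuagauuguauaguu
let-7g-5p: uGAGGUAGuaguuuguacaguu
let-7c-5p: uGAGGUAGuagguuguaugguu
let-7a-5p: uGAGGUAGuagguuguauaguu
let-7i-5p: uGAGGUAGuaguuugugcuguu
miR-26a-5p: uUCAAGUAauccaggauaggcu
miR-125b-5p: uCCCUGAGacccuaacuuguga
miR-125a-5p: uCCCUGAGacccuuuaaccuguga
miR-29a-3p: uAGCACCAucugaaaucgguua
miR-218-5p: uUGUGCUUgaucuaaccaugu
miR-30a-5p: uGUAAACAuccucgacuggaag
miR-30c-5p: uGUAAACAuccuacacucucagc
miR-30e-5p: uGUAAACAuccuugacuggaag
miR-99a-5p: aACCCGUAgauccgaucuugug
miR-103-3p: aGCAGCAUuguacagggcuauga

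Several of these mature sequences are encoded at more than 1 place, and a read cannot tell the copies apart. In GRCm38.p6, miR-9-5p matched 3 loci, at chr3:88215613-88215635 (Mir9-1), chr13:83738821-83738843 (Mir9-2) and chr7:79505279-79505301 (Mir9-3), all on the forward strand and each within the span of a long noncoding RNA gene (Gm3764, C130071C03Rik and Mir9-3hg). Both copies of miR-128-3p lie within protein-coding genes, at chr1:128202404-128202424 in R3hdm1 (forward strand) and at chr9:112118644-112118664 in Arpp21 (reverse strand). The pair for miR-218-5p lies in the axon guidance genes Slit2 and Slit3, and the pair for miR-103-3p in the pantothenate kinase genes Pank3 and Pank2. miR-29a-3p has 1 locus, chr6:31062673-31062694 on the reverse strand, outside any annotated gene other than its own.

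A few microRNAs took most of the microRNA counts. The leading microRNA alone held 19.2 to 24.2% of them, the leading 5 held 41.1 to 49.6%, and the leading 20 held 74.9% ± 1.81 (SD, n = 8). In each library 6 to 8 microRNAs made up 50% of microRNA counts, and 187 to 218 made up 99%. Of 1914 microRNA features listed, 1470 had a count in any control and 687 in every control. By their median level, 1 microRNA lay above 100000 RPM, 19 lay between 10000 and 100000, 58 between 1000 and 10000, and 150 between 100 and 1000, while 867 had a median of 0. A count of 0 in a library allows up to 0.390 to 0.946 counts per 1000000 of all small RNA counts (CPM), which covers counting error only.

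miR-9-5p, which acts on neural progenitors and neurons, ranked first in all 8 controls, with a lowest level of 191551, a median of 205987 and a highest of 242435 RPM. Its level was 2.45 times that of miR-128-3p on the mean log2 ratio of the same library, and the order was the same in 8 of 8 controls. miR-128-3p, a neuronal microRNA, followed with 63564, 85818 and 103789 RPM (lowest, median and highest). miR-26a-5p, which is encoded in genes of the Ctdsp phosphatases, had a median of 59476 (range 42507 to 65568). miR-124-3p, the classical microRNA of neurons, had a median of 47945 (range 42765 to 63051). These levels fall in steps that the libraries did not always keep. miR-128-3p exceeded miR-26a-5p in 7 of 8 controls, miR-26a-5p exceeded miR-124-3p in 6 of 8, and miR-124-3p and miR-125b-5p, with a median of 46574 (range 41743 to 58673), had a ratio of 1.02 and kept their order in 5 of 8, so that their ranks did not differ beyond the spread between libraries.

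The same held further down the list. miR-29a-3p (median 34041, range 18036 to 47580), miR-9-3p (33533, range 23049 to 35623) and let-7f-5p (32703, range 30335 to 39912) changed places between libraries, each neighbour pair keeping its order in 4 of 8 controls. Within the let-7 family the order was steadier, with let-7f-5p above let-7g-5p (27542) and let-7c-5p (24293) above let-7a-5p (18875) in 8 of 8 controls. miR-218-5p (18392), miR-125a-5p (16141), miR-30a-5p (15909) and miR-30d-5p (15773) were hardly separable, as their neighbour pairs kept their order in 4 or 5 of 8. The list closed with miR-99a-5p at 12705, miR-103-3p at 11946, let-7i-5p at 11318, miR-30c-5p at 11210 and miR-30e-5p at 10400 RPM by their medians, and the next, miR-143-3p, a microRNA of vascular smooth muscle, had a median of 9755. In the SE libraries, 19 of the 20 and 98 of the 100 leading microRNAs were the same as in controls.

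**Figure D1:**
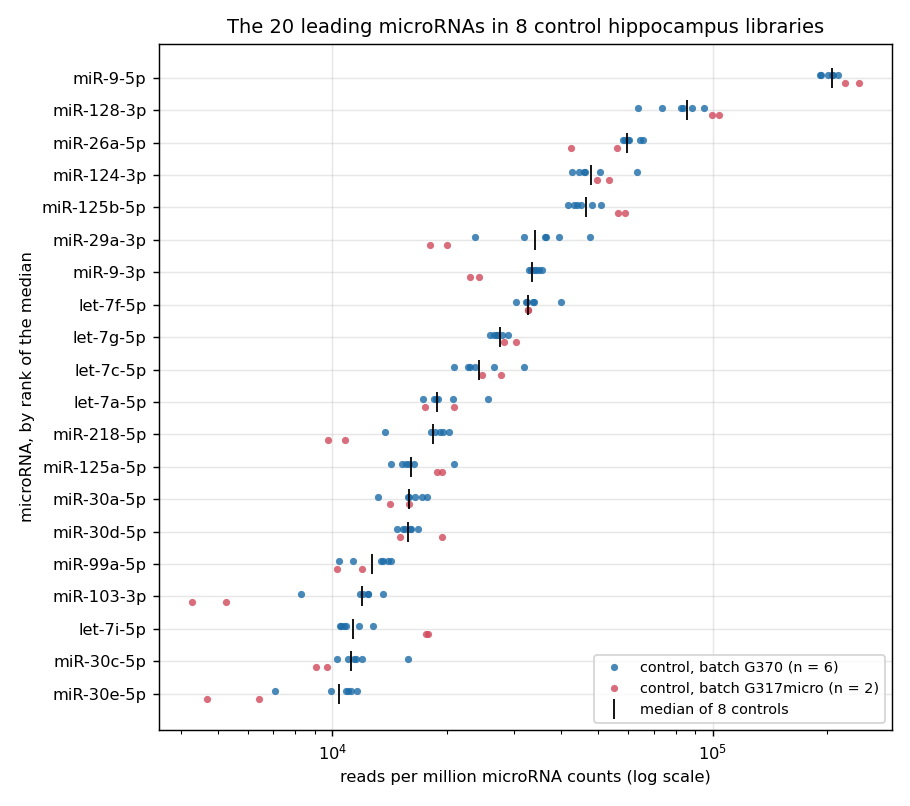
Level of each of the 20 leading microRNAs in the 8 control libraries, in RPM on a log axis. Each point is 1 library, coloured by batch label (6 libraries of G370 and 2 of G317micro), and the black bar is the median of all 8. miR-9-5p lies apart from the rest at 191551 to 242435, while most neighbours overlap, and the points of G317micro lie to the left of the others for miR-29a-3p, miR-9-3p, miR-218-5p, miR-103-3p and miR-30e-5p.

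The spread between controls differed between microRNAs. Over the 228 microRNAs with a median of at least 100 RPM, the median coefficient of variation (CV, the SD as a percent of the mean) was 21.3% over 8 controls and 12.9% over the 6 controls of G370. The CV was below 10% for 17 microRNAs and above 50% for 18, of which 4 also passed 50% within G370. let-7g-5p was the steadiest, with a CV of 5.06% and a range from 26039 to 30335 RPM, followed by miR-1839-5p (7.11%), miR-382-5p (7.95%), miR-3475-3p (7.99%) and miR-9-5p (8.04%). The least steady were miR-1298-5p (85.6%), miR-34c-5p (83.2%), miR-448-3p (81.3%) and miR-204-5p (76.5%), all in the list of choroid plexus and ependyma microRNAs described below, and miR-19b-3p (60.5%), a member of the miR-17-92 cluster. miR-19b-3p was low in both libraries of G317micro and did not overlap with the 6 others.

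Summed by seed, the 1362 microRNAs with both a sequence and a count formed 1162 families, of which 1023 had 1 member. Those with a sequence held 88.8 to 90.8% of the microRNA counts. Among families formed this way, the 10 leading held 70.1% ± 1.59 (SD, n = 8) of the microRNA counts. miR-124-3p (median 47945 RPM) and miR-30d-5p (15773) had no sequence and are in no family here. The ranking of families leaves them out, although miR-124-3p alone exceeded the sum of the miR-30 family (median 39335). miR-9-5p was alone in its family and was followed by the let-7 family (seed GAGGUAG), with a median of 134763 RPM (range 124810 to 158424). The let-7 family, which is known for holding cells in a differentiated state, had 11 members with a count, 9 of them above 100 RPM. let-7f-5p held 22.0 to 26.7% of its counts, so that no single member dominated. let-7d-5p (6853), let-7b-5p (5629), let-7e-5p (3426) and miR-98-5p (1777) followed the 5 members already given by their medians.

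Other families were carried by a single member. In the miR-125 family (seed CCCUGAG, median 64191, range 56107 to 78260) miR-125b-5p held 69.6 to 75.5%, and in the miR-26 family (seed UCAAGUA, median 62590, range 45443 to 70122) miR-26a-5p held 93.2 to 95.4%. miR-29a-3p likewise held 92.2 to 97.7% of the miR-29 family (seed AGCACCA, median 36695, range 18608 to 51618), which is known for acting on collagen messenger RNAs. The counted part of the miR-30 family (seed GUAAACA) was shared more evenly between miR-30a-5p, miR-30c-5p and miR-30e-5p. miR-30a-5p held 35.3 to 49.4% of a sum of 39335 (range 29164 to 41039). Neither miR-30d-5p nor miR-30b-5p is counted in this sum, so the share of miR-30a-5p in the whole family is lower. miR-99a-5p held 48.1 to 64.9% of the miR-99/100 family (seed ACCCGUA, median 21588, range 18290 to 23693). The miR-29 sum differed most between libraries among these families, with a CV of 34.0%, against 8.32% for let-7 and 8.54% for miR-99/100.

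The leading microRNAs also had a shared base composition at their 5′ end. Of the 1618 microRNA features with a sequence, 653 (40.4%) start with U, yet these held 81.9 to 85.2% of the counts of all features with a sequence. A U at the first base is the one that the Argonaute pocket is known to hold well. MicroRNAs of 22 bases were 728 of the 1618 features and held 45.3 to 53.4% of counts, and those of 23 bases held 29.2 to 34.4%, a share to which miR-9-5p belongs. All let-7 members printed above are 22 bases long.

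Arm use was measured as the 5p arm's percent of the counts of both arms, after 0.5 was added to the count of each arm. An arm without counts therefore has a share above 0. Both arms were listed for 755 hairpins, and 239 had a mean of at least 100 counts over both arms. The 5p arm led in 116 of these and the 3p arm in 123. The choice was mostly one-sided, with a median of 97.6% for the leading arm, over 99% in 84 hairpins, 60 to 90% in 60 and under 60% in 12. Among the most abundant hairpins, the 5p arm held 99.968 to 99.989% of miR-26a and 99.04 to 99.35% of miR-125b, while it held 0.0449 to 0.0702% of miR-128 and 0.229 to 0.724% of miR-124, in which the 3p arm leads. miR-9 was the exception among them, since both its arms stood in the leading 20. Its 5p arm held 85.2 to 85.9% in the 6 controls of G370 and 90.6 and 90.9% in the 2 of G317micro, and these ranges did not overlap.

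The most one-sided hairpins led by 3p were miR-103, miR-126a, miR-219a, miR-101b and miR-320, and those led by 5p were let-7a, let-7g, miR-21a, miR-26a and miR-30d. For 4 hairpins the 5p arm was listed at 0 in all 16 small RNA libraries, namely miR-126a-5p, miR-219a-5p, miR-375-5p and miR-429-5p, although the other arm had at least 60 counts in each control. The miR-126a-3p counts ranged from 8477 to 21901, and the file does not tell an absent arm from reads that were not assigned to it. Where both arms had a sequence (177 hairpins), 92 of the leading arms (52.0%) and 36 of the minor arms (20.3%) start with U. Where the leading arm held over 90% (115 hairpins), these counts were 72 (62.6%) and 21 (18.3%).

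The leading arm was the same in all 8 controls for 220 hairpins and changed between libraries for 19, of which 10 changed within the controls of G370. miR-7654 is counted in both, although its 5p arm had 0 to 2 counts and its 3p arm a median of 10.5. In 8 hairpins every library of G317micro led with the other arm than every library of G370: miR-301a, miR-325, miR-345, miR-376a, miR-378a, miR-380, miR-671 and miR-770. The arm sequences of 3 of them are shown, because the 2 arms carry different seeds and the count of each decided which seed led.
miR-301a-5p: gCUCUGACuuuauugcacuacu
miR-301a-3p: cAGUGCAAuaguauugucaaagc
miR-380-5p: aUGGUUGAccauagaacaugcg
miR-380-3p: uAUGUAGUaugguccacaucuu
miR-671-5p: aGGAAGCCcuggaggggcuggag
miR-671-3p: uCCGGUUCucagggcuccacc

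These arms lie at chr11:87113017-87113038 and chr11:87113054-87113076 in Ska2 for miR-301a, at chr12:109711806-109711827 and chr12:109711842-109711863 for miR-380, and at chr5:24592132-24592154 and chr5:24592171-24592191 in Chpf2 for miR-671, all on the forward strand of GRCm38.p6. The 5p arm of miR-301a held 13.5 to 28.4% in G370 and 67.7 and 82.6% in G317micro. For miR-380, a hairpin of the imprinted Dlk1-Dio3 region, it held 20.6 to 25.4% in G370 and 64.9 and 72.4% in G317micro. miR-671 moved the other way, with 54.5 to 60.5% in G370 against 22.8 and 27.0% in G317micro, as did miR-378a with 60.1 to 78.9% against 30.9 and 6.82% and miR-770 with 64.2 to 71.9% against 39.8 and 41.7%. Over all 239 hairpins, the 5p share did not overlap between the batches for 129 (54.0%), and in 67 of these the 5p arm was higher in G317micro, so the hairpins that changed lead stand on a broad difference in both directions. The median SD of the log2 ratio of 5p to 3p was 0.71 over 8 controls and 0.38 within G370. Against SE, the leading arm on the mean was the same for 238 of 239 hairpins, and limma's test of the log2 arm ratio, averaged over the 4 times, found 0 of 239 with an adjusted p under 0.05 (0% of those tested), with 10 at an unadjusted p under 0.05.

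**Figure D2:**
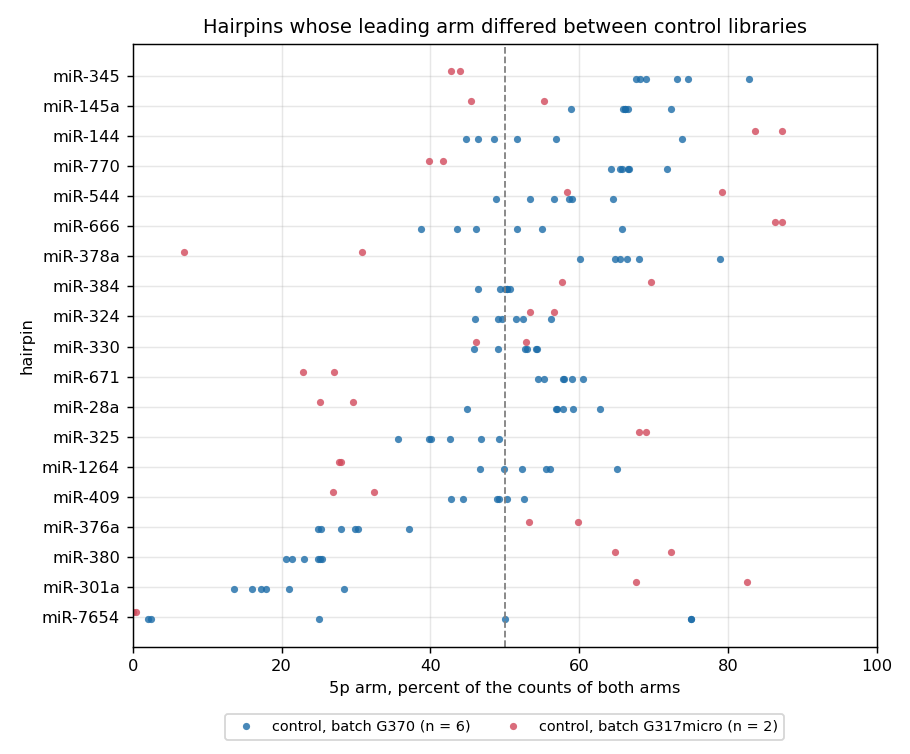
The 5p arm's percent of the counts of both arms, with 0.5 added to each arm, for the 19 hairpins whose leading arm differed between control libraries. Each point is 1 library coloured by batch label, and the dashed line marks 50%. For miR-301a, miR-380 and miR-376a the libraries of G370 lie left of the line and those of G317micro right of it, for miR-671, miR-770 and miR-345 the reverse holds, and miR-7654 rests on few 5p counts.

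Lists of microRNAs that mark cell types were summed in each control. In bulk tissue, fewer cells of a type and less RNA per cell cannot be told apart. All 12 microRNAs of the neuron list had counts in every control, and their sum was 363587 to 432890 RPM (median 399340). miR-9-5p, which also acts on progenitors, and miR-128-3p made up most of this sum, while miR-129-5p was at only 5.63 to 8.78. The 4 microRNAs of the oligodendrocyte list summed to 2524 to 3949 (median 3339), mostly miR-219a-2-3p with 1866 to 2954. Its companion miR-219a-5p was at 0 throughout, and miR-338-5p (median 740) far exceeded miR-338-3p (4.81). The endothelial and mural list summed to 10928 to 17131 (median 12713), of which miR-143-3p made up most, with miR-126a-3p, an endothelial microRNA encoded in Egfl7, at 2173 to 3052 and miR-126a-5p at 0. The microglia and leukocyte list summed to 700.1 to 950 (median 859) and the red blood cell list to 477 to 627 (median 563). Among lists of cells that hippocampus does not hold, sums were low for muscle (4.18 to 8.17) and pluripotent cells (0 to 5.07). The Hox cluster microRNAs of hindbrain and spinal cord summed to 8.78 to 34.4. The sensory cell list reached 279.5 and the hepatocyte list 70.9 at their highest, as described below.

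The choroid plexus and ependyma list differed widely between controls, with a sum of 3881 at the lowest, 6853 at the median and 23184 at the highest. Choroid plexus is the epithelium in the ventricles that makes cerebrospinal fluid, and it borders the hippocampus. The sum was highest in control 24 h replicate 1, followed by control 120 h replicate 1 with 13062, control 8 h replicate 1 with 10041 and control 1 h replicate 2 with 9279, while the other 4 controls lay between 3881 and 4427. miR-204-5p, which is encoded in Trpm3, reached 9665 in control 24 h replicate 1 and was 1176 to 5549 in the others. miR-1298-5p, miR-448-3p, miR-1912-3p and miR-1264-3p all lie within the span of Htr2c, the serotonin receptor gene that choroid plexus expresses strongly, between chrX:147009493-147009514 and chrX:147158281-147158302, and their levels moved together. miR-1298-5p was 9521, 5786, 5192 and 3413 RPM in the 4 libraries with the high sums, in the order control 24 h replicate 1, 8 h replicate 1, 120 h replicate 1 and 1 h replicate 2, and 812 to 1949 in the other 4. miR-448-3p was 902, 901, 509 and 359 in the same libraries and 84.0 to 288 in the others, without overlap. Both are counted in the sum, to which miR-1298-5p and miR-204-5p contributed most. Their high levels in the libraries with high sums are therefore partly fixed by that choice of libraries. miR-34c-5p, a microRNA of ciliated epithelium, was 2720 in control 24 h replicate 1, 1453 in control 120 h replicate 1 and 609 to 754 in the other controls of G370, but 490 and 212 in G317micro, and so was not high in control 8 h replicate 1. miR-34b-5p, from the same cluster, was 2.29 and 0.338 in G317micro and 29.5 to 140 in G370, without overlap (log2 fold change -5.25, SE of the estimate 0.99, edgeR adjusted p = 0.0027). The miR-200 microRNAs of the same list, which mark other epithelia, went the other way in control 24 h replicate 1, where miR-200a-3p (34.8), miR-200b-3p (58.2) and miR-429-3p (14.5) had their lowest levels, against highest levels of 126, 152 and 52.7. In the SE libraries the sum of this list was 6802 to 15762.

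The sequences of 2 of the Htr2c microRNAs and of miR-204-5p are given because they account for 3 of the 5 largest CVs among microRNAs with a median of at least 100 RPM.
miR-1298-5p: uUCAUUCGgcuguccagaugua
miR-448-3p: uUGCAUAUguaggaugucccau
miR-204-5p: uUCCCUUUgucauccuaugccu

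The cluster of miR-96, miR-182 and miR-183, known from photoreceptors and other sensory cells and encoded at chr6:30165962-30165986 to chr6:30169711-30169732 in Mirc35hg (reverse strand), was high in only some controls. Its sum was 279.5 in control 8 h replicate 1, 242 in control 120 h replicate 1 and 52.0 in control 8 h replicate 2, and 12.9 to 24.1 in the other 5. miR-182-5p was 144 and 118 in the 2 highest libraries and 6.57 to 30.7 in the others. The hepatocyte microRNA miR-122-5p was 5.83 to 7.17 in 7 controls and 70.9 in control 8 h replicate 2. The part of these cell types in the other differences between controls was not tested.

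**Figure D3:**
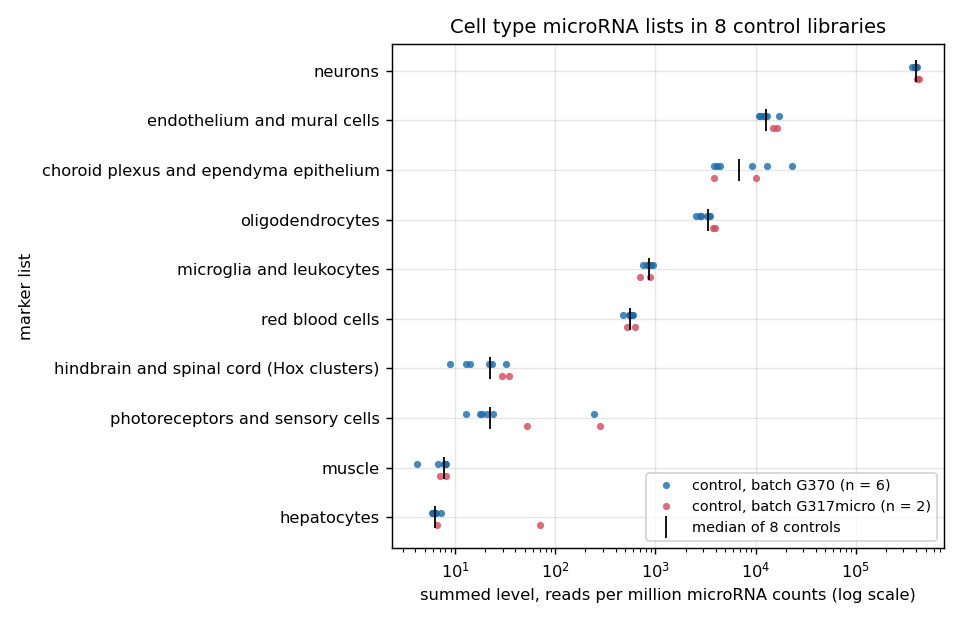
Summed level of 10 cell type lists in the 8 controls, in RPM on a log axis, with 1 point per library coloured by batch label and the median as a black bar. The neuron list lies at 363587 to 432890 in all libraries, whereas the choroid plexus list ranges from 3881 to 23184, the sensory list from 12.9 to 279.5, and the hepatocyte list holds 1 library far to the right.

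MicroRNAs made up 92.9 to 94.1% of all small RNA counts of the controls. The next classes were piRNA-annotated features with 1.25 to 2.63% (median 2.31%) and small nucleolar RNAs (snoRNAs, which guide the modification of ribosomal RNA) with 1.73 to 2.21%. Features to which no class could be assigned here held 1.67 to 2.46%. Ribosomal RNA held 0.108 to 0.193%, small nuclear RNA (snRNA) 0.0466 to 0.317%, predicted microRNAs 0.0451 to 0.157% and the remainder 0.0155 to 0.0506%. These are shares of reads in a library made for short RNAs, so for the longer classes they count fragments. None of the 8 classes passed a threshold of 0.05 between SE and control in an exact two-sided permutation test within times (adjusted p = 0.926 for each class, the smallest unadjusted p was 0.221, and 1296 regroupings allow a smallest p of 0.00154). The microRNA share, for example, was 93.5% ± 0.371 in controls and 93.1% ± 2.56 after SE (SD, n = 8 each).

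Single features carried several classes. piRNAs are small RNAs that silence transposons in the germ line, and the label used here says only that a read matched a listed piRNA. A single entry, piR_000159, held 63.0% (median) of the piRNA-annotated counts, with 14081 to 16798 CPM in G370 but 1253 and 1313 in G317micro. The next entry, piR_000935, was at 1759 to 2767 CPM in all 8 controls, and piR_032901 at 762 to 1436. n-R5-8s1, a 5.8S ribosomal RNA, held 90.1% of the ribosomal counts with 966 to 1621 CPM. Among snoRNAs no feature dominated, and Snord49a (1465 to 2930 CPM), Gm26202 (1490 to 1972), Gm23301 (835 to 2018), Snord100 (435 to 1444) and Snord65 (311 to 912) led, with Snord49a at a median of 9.01% of the class. Gm24452 led the features without a class (4759 to 7137 CPM), followed by Gm23246, which was 2401 to 3095 CPM in G370 and 7172 and 7394 in G317micro. Rnu73b, placed among the snRNAs here by its name alone, had the highest median of that class, at 68.1 to 138 CPM. Rnu5g followed at 12.0 to 155 CPM, and the predicted microRNA p-mmu-miR-16 was at 43.5 to 383.

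**Figure D4:**
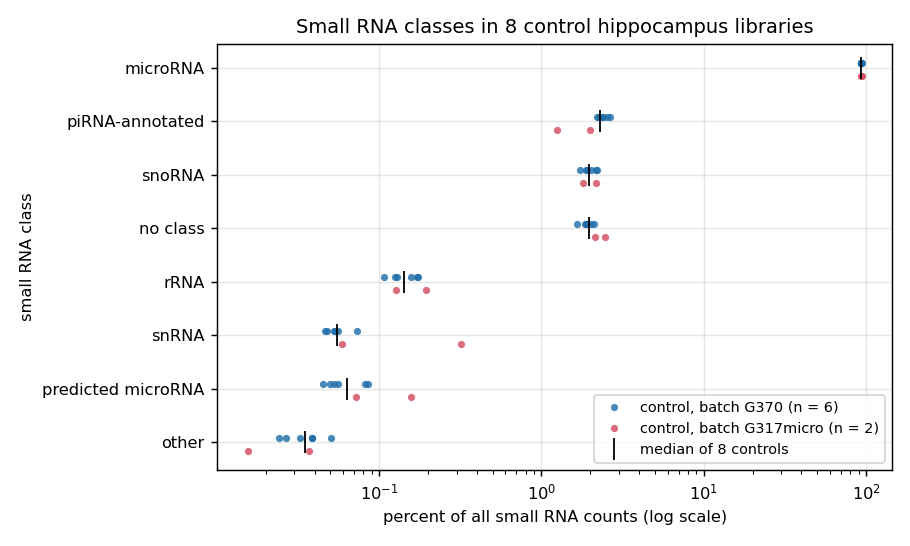
Share of each small RNA class in the counts of the 8 controls, in percent on a log axis, with 1 point per library coloured by batch label and the median as a black bar. MicroRNAs lie at 92.9 to 94.1% in all libraries, piRNA-annotated features are lowest in the 2 libraries of G317micro, and 1 library of G317micro has the highest snRNA share (0.317%).

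The difference between the batches was then tested in the controls alone, 2 libraries of G317micro against 6 of G370, with edgeR's quasi-likelihood test. Of 1009 features tested, 490 (48.6%) passed an adjusted p of 0.05, 219 (21.7%) higher and 271 (26.9%) lower in G317micro, and 556 (55.1%) did not overlap between the batches. Of 626 microRNAs, 296 (47.3%) passed, 106 higher and 190 lower. Of the leading 20 microRNAs 11 passed, which is close to the share of all features. Higher in G317micro were miR-9-5p, miR-128-3p, miR-125b-5p, let-7g-5p, miR-30d-5p and let-7i-5p, and lower were miR-29a-3p, miR-9-3p, miR-218-5p, miR-103-3p and miR-30e-5p. let-7i-5p rose most among these, by 0.84 on the log2 scale (SE 0.09, edgeR adjusted p = 0.000211), and miR-103-3p fell most, by 1.13 (SE 0.16, edgeR adjusted p = 0.00075). Calls and fold changes rest on the test's own normalization over all features, not on RPM. In RPM the batches overlapped for let-7g-5p (28215 and 30335 in G317micro, 26039 to 28999 in G370). They also overlapped for miR-30d-5p (15081 and 19390 against 14839 to 16811), but not for the others that passed. Leaving out either 8-h control leaves 1 library in G317micro. Without control 8 h replicate 2, miR-9-5p, miR-128-3p, miR-125b-5p, miR-29a-3p, let-7g-5p and miR-30e-5p no longer passed. Without control 8 h replicate 1, miR-128-3p, miR-29a-3p, miR-9-3p, let-7g-5p, miR-218-5p and miR-30d-5p no longer did. The log2 fold change of miR-9-5p was 0.26 without replicate 2, and that of miR-30d-5p was 0.13 without replicate 1. Since this batch holds only 8-h controls, the batch label and the time of collection cannot be told apart.

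Among the features with the smallest p-values, piR_000159, already given above, was lower in G317micro by a log2 fold change of -3.43 (SE 0.10, edgeR adjusted p = 2.26e-07). piR_010565 had 0 counts in both controls of G317micro and 1094 to 2148 in those of G370, which makes it at least 626-fold lower against a limit of 3 counts over the batch. miR-137-3p, a microRNA of neuronal differentiation, was 301 and 319 RPM in G317micro and 2109 to 3320 in G370 (log2 fold change -2.97, SE 0.17). From the miR-17-92 cluster on chromosome 14, miR-19b-3p (-4.05), which has a further copy on the X chromosome, miR-19a-3p (-4.24) and miR-20a-5p (-2.66) were lower, as were miR-22-5p (-2.60) and the snoRNAs Snord98 (-2.74) and Snord73a (-2.39). Gm23246 (1.61, SE 0.10), miR-148b-3p (1.48) and miR-99b-5p (0.97) were higher and were also well counted. Among the 10 named by the rule for higher features, piR_019299 (7.17) and piR_017477 (4.33) had small counts or differed greatly between the 2 libraries, with 20 and 72 counts for the former.

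Families and classes did not move alike. Of the 7 seed families with at least 4 members tested, the miR-16 family fell in 6 of 6 members (median log2 fold change -1.40) and the miR-17/93 family in 4 of 5 (-2.05), whereas the let-7 family rose in 3 of 9 with the other 6 not passing (median 0.24) and the miR-181 family rose in 2 of 4 (0.39). Over all 1009 features 21.7% were higher and 26.9% lower, with a median of -0.04. Among piRNA-annotated features 50 of 121 were higher and 17 lower (median 0.93), and among ribosomal features 6 of 7 were higher. Of the neuron list 2 of 12 were higher and 7 lower, although the list's sum was 411662 and 432890 in G317micro against 363587 to 411955 in G370. The members that rose, miR-9-5p and miR-128-3p, made up most of that sum. The 7 that fell were miR-137-3p (log2 fold change -2.97), miR-153-3p (-2.04), miR-138-5p (-1.49), miR-212-3p (-1.25), miR-132-3p (-1.10), miR-218-5p (-0.65) and miR-9-3p (-0.36).

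The difference ran with the base composition of the mature sequence. Over the 540 microRNAs tested that had a sequence, Spearman's correlation of GC content with the log2 fold change was 0.27, and 0.21 for the 178 with a log2 CPM of at least 7. All points rest on the same 8 libraries. The median log2 fold change was -0.72 below 35% GC (40 microRNAs), -0.86 from 35 to 40% (51) and -0.60 from 40 to 45% (79), and then -0.05 from 45 to 50% (107), -0.05 from 50 to 55% (107), -0.03 from 55 to 60% (57) and 0.04 from 60% on (99). Of the 40 microRNAs below 35% GC, 22 were lower and 4 higher in G317micro, while of the 99 from 60% on, 17 were lower and 22 higher. Of all 626 microRNAs tested, with or without a sequence, 190 were lower and 106 higher. miR-137-3p and miR-19a-3p, both with 34.8% GC, belong to the lowest range, but so does miR-9-5p, with 34.8% as well and a higher level in G317micro. The part of GC content in the difference was not tested.

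**Figure D5:**
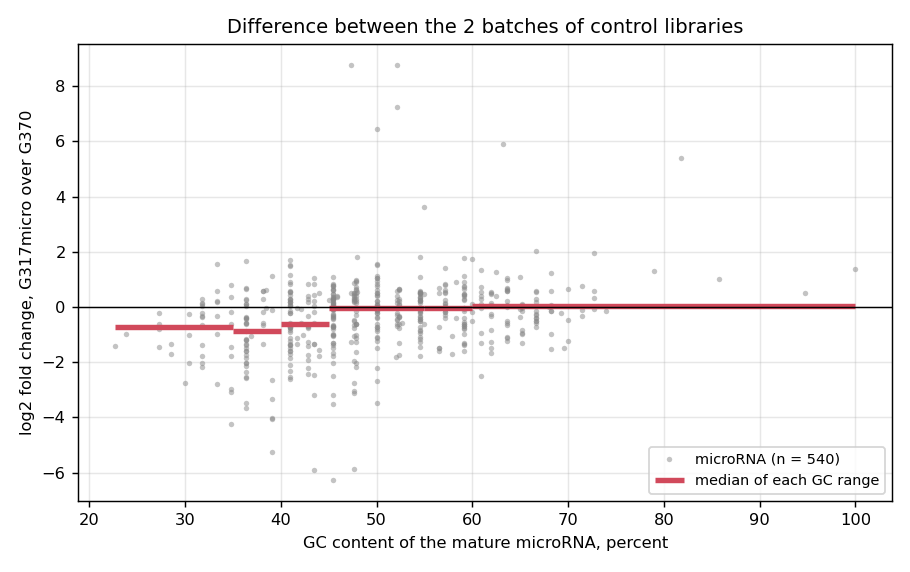
Log2 fold change of each of 540 microRNAs between control libraries of G317micro and G370 (vertical axis) against the GC content of the mature sequence in percent (horizontal axis). Grey points are microRNAs and red lines the median within each GC range, which lies at -0.72, -0.86 and -0.60 in the 3 ranges below 45% GC and near 0 above.

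Within G370 the controls of 1, 24 and 120 h could be compared without a change of batch. edgeR's quasi-likelihood test found 0 of 952 features (0%) that differed between these times at an adjusted p of 0.05, with 28 at an unadjusted p under 0.05, and DESeq2 and edgeR's likelihood ratio test also found 0. The smallest unadjusted p was that of miR-3470a, with mean levels of 1.84, 1.59 and 4.53 normalized CPM at 1, 24 and 120 h (edgeR adjusted p = 0.912). Without control 120 h replicate 2, 1 feature passed, miR-183-5p of the sensory cluster described above, which was high in control 120 h replicate 1. Each time had 2 libraries, and for 1 of the 6 controls of G370, control 120 h replicate 1, the most similar library was the other one of the same time.

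Against SE, averaged over the 4 times with 8 libraries a group, 0 of 1103 features (0%) passed in edgeR's quasi-likelihood test, with 44 at an unadjusted p under 0.05, 0 by edgeR's likelihood ratio test and 2 by DESeq2 (piR_038853 and miR-5112, both of which were highest in control 8 h replicate 2). For the leading 20 microRNAs the log2 fold changes ran from -0.11 for miR-29a-3p (SE 0.14) to 0.17 for miR-30a-5p (SE 0.11). miR-9-5p differed by 0.11 (SE 0.08) and miR-124-3p by 0.08 (SE 0.14), in each case less than the spread between libraries. These tests average over times and so do not show that the small RNA of any 1 time was unchanged.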

How the data were processed

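Small RNA was sequenced from hippocampus in 16 libraries (NEXTflex Small RNA kit v3), and 8 controls are described here. Per the paper's methods, the authors removed adapters and then 4 bases from each end of the reads and counted them with Oasis 2.0, and the deposited values are raw counts per feature without normalization. The submitters' processing notes also name bcl2fastq, HISAT2 2.1.0, HTSeq and NCBIM37/mm9, without saying for which libraries, and the build behind the small RNA counts is not given in the sources used here. Levels are reads per 1000000 microRNA counts (RPM), or counts per 1000000 of all small RNA counts (CPM) for other classes. Classes were assigned here from the feature names and, for the rest, from the RefSeq gene type of the symbol. Features without a match in either have no class.

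Features kept by filterByExpr were tested with edgeR 4.0.16 (TMM, quasi-likelihood, R 4.3.3), with p-values adjusted by Benjamini-Hochberg over all features and a threshold of 0.05. The batch was compared over 8 controls, time over the 6 controls of G370, and SE against control over 16 libraries with a mean for each group and time. Arm ratios, log2 with a pseudocount of 0.5, were tested with limma 3.58.1 for hairpins with a mean of at least 100 counts over both arms. Class shares were tested by an exact permutation within times, adjusted over 8 classes. The steps were tested on simulated data. Alternatives were RLE normalization, microRNAs alone, no filter, DESeq2 1.42.0, the likelihood ratio test, a replicate block, unadjusted p, and leaving out each library.

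Named by rule were the 20 microRNAs and 10 seed families with the highest median, the 10 hairpins with the highest arm total, the 5 nearest 50% and the 5 strongest on each side, the leading 5 features of each class, the 5 smallest and largest CVs, the members of 11 cell type lists, and up to 10 features per direction of each test that did not overlap, or the 5 with the smallest p. Members and lists were chosen with earlier results of these data known. No 2 controls were the same within sampling noise (chi-square per degree of freedom 17.0 to 797). Counting limits cover counting error only, since reads carry no molecular identifier in these counts. Sequences and loci were matched by microRNA name to RefSeq tables of GRCm38.p6, which held 1618 of 1914 microRNA features, and the replicate pairing is treated in the closing section.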

Additional observations from a re-analysis of the deposited data

Results flagged for a closer look

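Of 135 values examined for a control library lying far from the other 7, 18 (13.3%) did so. The limit used is set so that chance passes it in about 1 in 20 groups of independent values, whereas these values share libraries and some, such as miR-26a-5p and its family, share reads. Control 8 h replicate 2 was the library apart in 9 of the 18. There miR-26a-5p was 42507 RPM (56182 to 65568 in the others) and the miR-26 family 45443 (60278 to 70122), miR-122-5p was 70.9 (5.83 to 7.17) and miR-302d-3p was 2.03 (0 to 0.777). In the same library the snRNA share was 0.317% (0.0466 to 0.0729% in the others) and the predicted microRNA share 0.157% (0.0451 to 0.0855%), and 3 ribosomal 5S features were high: n-R5s151 at 671 CPM (99.6 to 159), n-R5s194 at 16.7 (3.34 to 6.71) and n-R5s5_n-R5s52 at 13.9 (0.361 to 4.56).

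Control 1 h replicate 2 was apart for let-7f-5p at 39912 RPM (30335 to 33972 in the others), let-7a-5p at 25616 (17352 to 20842), miR-30c-5p at 15777 (9088 to 11957) and miR-142a-5p at 55.8 (67.2 to 77.3). Control 8 h replicate 1 was apart for miR-30d-5p at 19390 RPM (14839 to 16811), miR-302a-3p at 1.14 (0 to 0.338) and the piRNA-annotated share at 1.25% (2.00 to 2.63%). Control 120 h replicate 1 had miR-211-5p at 12.3 RPM (0.996 to 2.37), and control 120 h replicate 2 had miR-294-3p at 0.207, which is 1 read, against 0 in the others. No cause was tested for any of these.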

How the results depend on the processing

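No named feature reversed its direction where it passed the threshold in the main test or under the alternative. A change of sign in a feature that passed in neither was not counted as a reversal. For the batch difference (490 features), counts of calls were 496 with RLE normalization, 460 with DESeq2, 451 with the likelihood ratio test, 576 without a filter and 541 at an unadjusted p under 0.05. With microRNAs alone 315 of 626 passed, against 296 microRNAs in the main test over all features. Leaving out each library in turn kept 331 to 470 of the 490 calls, the fewest without control 8 h replicate 2, and the library then alone in its batch is assumed to vary like the others. For the named features and leading 20, the call was lost in 30 comparisons with an alternative and gained in 6, all among the leading 20, and kept in every other. let-7g-5p and miR-30d-5p lost it most often. The difference between times (0 features) gave 68 calls without a filter, 28 at an unadjusted p, and 0 to 1 when each library was left out. SE against control (0) gave 11 without a filter, 2 with DESeq2 and 44 at an unadjusted p, and the arm test (0) gave 10 at an unadjusted p, an alternative added after the data were seen. The cause of these was not tested.

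Without the libraries of G317micro, 9 hairpins changed their leading arm (19 over all 8), with the minimum arm total then applied to the 6 others. Without the most abundant feature of each class, the median shares became 94.7% for microRNA, 1.15% for piRNA-annotated features, 2.29% for snoRNA, 0.0149% for rRNA and 0.0112% for the remainder. Of 320 values of named levels under an alternative, 3 moved by over 1 SD.

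Equal replicate numbers were not taken to pair the libraries, since the correlation of deviations of libraries with the same number was not above 0.1 in every pair: it ranged from -0.20 to 0.18 between control and SE over the 4 times, and from -0.14 (1 h with 24 h) to 0.49 (8 h with 120 h, and 24 h with 120 h) between controls of different times. With a replicate block the batch test called 488 features and the time, SE and arm tests 0 each, and miR-30d-5p lost its call between batches. Depth limits single counts to 0.390 to 0.946 CPM for a detection of 3 counts, and 2 libraries in G317micro limit every statement on that batch.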

Other observations

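The 25 features that set control 8 h replicate 2 apart were picked after their values were seen, as those with at least 60% of their summed control CPM in 1 library and over 50 CPM there. All 25 were highest in this library, 12 were piRNA-annotated and 7 were microRNAs, and together they held 2.83% of its counts against 0.0018 to 0.142% in the other controls. miR-5106 was at 16811 CPM there and at 0.139 to 716 in the others, the snRNA feature Gm24152 at 2658 against 0 to 232, piR_038853 at 1413 against 0 to 92.3, and the snoRNA Snora64 at 433 against 3.34 to 14.2. Control 8 h replicate 1 was the next highest for 17 of them and control 120 h replicate 2 for 7.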
